A study of Mus musculus with 23 samples.

Results

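The strongest binding sites of the nuclear receptor LXRβ in agonist-treated RAW264.7 cells were described by their position relative to p65 sites of primary macrophages. The sites were taken from the deposited LXRβ peak list as all peaks with a height, the authors' normalized tag count, of 20 or more. Heights are scaled to 10000000 tags per library. This gave 290 of 2743 peaks (10.6%), called strong sites here, and left 2453 other LXRβ sites. The sites were chosen by this height alone, so height and the other readings of the LXRβ library are given as description. No p65 value entered the rule, but the members were chosen with earlier results of these data known.

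LXRβ and its relative LXRα are nuclear receptors for oxysterols that bind DNA with the retinoid X receptor and switch on genes of cholesterol efflux and fatty acid synthesis. GW3965 is a synthetic agonist of both. Without agonist, LXRs can recruit the corepressor NCoR, and agonist-bound LXRs are known to restrain inflammatory genes in macrophages. The subunit p65 (RelA) of NF-κB enters the nucleus when the receptor TLR4 is triggered, for example by Kdo2-Lipid A (KLA), the active part of endotoxin.

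LXRβ was mapped by pulling down biotin-tagged LXRβ (BLRP tag, biotinylated by BirA) with streptavidin beads from a stable line of RAW264.7, a mouse macrophage cell line labelled C57BL/6, after 2 h with 1 µM GW3965. p65 was mapped with an antibody in thioglycollate-elicited peritoneal macrophages of male mice aged 6 to 8 weeks, collected 3 to 4 days after the injection. All these mice were C57BL/6 with floxed NCoR alleles (NCoR fl/fl). Wild type macrophages were Lys M-Cre -/-, and knockout macrophages were Lys M-Cre +/-, which deletes NCoR in the myeloid lineage. Macrophages of both genotypes were either left untreated or given KLA at 100 ng/ml for 1 h, and the p65 cells received no GW3965 in these libraries. All cells were held overnight in 0.5% serum before treatment. The labels do not say whether mice were pooled or whether the RAW264.7 line is 1 clone. The lists hold peaks only, so the cell types were not checked against expressed markers, and the loss of NCoR was not measured by them.

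Each of these 5 groups was 1 library, out of 23 samples in the series, so the differences have no replicate check and were not tested. Intervals are 95%, cover counting error only and treat neighbouring sites as separate. The LXRβ library held 11758634 tags by its header, which would make 1 tag worth a height of 0.850, but 1 tag was worth 0.910 in the listed heights. The untreated p65 libraries held 777228 (wild type) and 786121 (knockout) tags, and the KLA libraries 2120392 and 1673506. The p65 lists held 702 and 2227 peaks without KLA and 30021 and 22585 peaks after it. The smallest listed p65 peaks held 5 tags, a height of 64.3 and 63.6 in the untreated wild type and knockout lists and of 29.9 in the knockout KLA list. In the wild type KLA list they held 4 tags, a height of 18.9, although its header gives a threshold of 5. A site without a listed peak can therefore hold p65 tags below that height. The cells also differ, so an overlap means the same genome position, not binding in the same cell. Positions are on mouse build mm9, for which no sequence or gene annotation was used here, and sites are named by position.

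The strong sites spanned a wide range of heights. Their median was 28.2, with quartiles of 22.8 and 42.6 and a highest value of 146.5, and 155 sites lay between 20 and 30, 86 between 30 and 50, and 49 at 50 or more. The threshold fell between neighbouring tag numbers. At its inner edge 26 sites stood at 20 (22 tags each), among them chr19:12908189-12908309, chr19:32351421-32351541 and chr19:42154548-42154668. Just outside, 26 sites stood at 19.1 (21 tags), such as chr1:61030872-61030992, chr1:84403604-84403724 and chr3:89198949-89199069. A single tag thus separates the lowest strong sites from the highest of the others.

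Strong sites tended to stand close to other LXRβ peaks. The median distance to the next LXRβ peak of either kind was 23266 bp (interval 17058 to 35669) for strong sites and 70282 bp (65074 to 79056) for the others. Chromosome 4 carried 40 strong sites (13.8%) and 169 others (6.89%), while chromosome 3 carried 8 (2.76%) and 192 (7.83%). These chromosomes were picked for the largest differences either way. Of the 40 strong sites on chromosome 4, 16 lay in a single region, chr4:140963022-141174655. The focus ratio, the share of tags on the side of the peak that their strand predicts, had a median of 0.810 at strong and 0.765 at other sites. Strong sites held a median of 24.5 times the tag density of their surroundings, and other sites 10.9 times.

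Some strong sites were also high in the input DNA of the control line. The lowest scaled input in the LXRβ list was 1.4 tags, and 89 strong sites (30.7%) lay above it, against 368 of the 2453 other sites. An input of 5 tags or more was found at 15 strong and 3 other sites. The highest were chr4:3017304-3017424, with an input of 110 and a height of 87.4, and chr11:3001689-3001809, with an input of 78 and a height of 61.9. The next were chr12:48934923-48935043 (input 54, height 57.3), chr11:108873178-108873298 (input 26, height 107.4) and chr13:9011333-9011453 (input 19, height 36.4). All of these had passed the authors' requirement of 4-fold over input. That requirement makes a peak with few tags unlikely to be listed at a high input. Other sites held a median of 11.7 tags counted without a limit per bp, against 35.0 at strong sites. The counts of 15 and 3 therefore follow in part from the requirement and the height threshold.

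The main comparison asked whether the places where LXRβ bound most strongly were places where p65 bound after KLA. They were so less often than the other LXRβ sites were. In KLA-treated wild type macrophages 97 strong sites (33.4%, Clopper-Pearson interval 28.0 to 39.2) overlapped a p65 peak by 1 bp or more, against 1065 other sites (43.4%, 41.4 to 45.4) and 42.4% of all LXRβ peaks. In KLA-treated knockout macrophages 81 strong sites (27.9%, 22.8 to 33.5) did, against 874 others (35.6%, 33.7 to 37.6) and 34.8% of all. The intervals of strong and other sites did not overlap in either genotype, though in many of the alternative settings given below they did. Peaks of 1 list are not replicates, so this is a description of these lists.

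The share with p65 did not change evenly with LXRβ height. Among other sites it was higher in taller bands. Of LXRβ peaks with heights from 8 to under 9, 34.8% overlapped wild type KLA p65 (29.7 to 40.2), and of those from 15 to under 20, 49.0% did (42.1 to 56.0). At 20 to under 25 the share was 34.9% (25.9 to 44.8), at 30 to under 50 it was 29.1% (19.8 to 39.9), and at 50 or more it was 38.8% (25.2 to 53.8). The knockout list gave 26.8% in the lowest band, 40.5% from 15 to under 20, 33.0% from 20 to under 25, 18.6% from 30 to under 50, and 34.7% at 50 or more. The gap between strong and other sites therefore depended on where the strong sites began. With strong sites taken at 15 or more, the wild type shares were 40.0% and 42.9% and the knockout shares 33.2% and 35.2%. At 30 or more they were 32.6% and 42.9%, and 24.4% and 35.4%. The gap of 9.97 percentage points in wild type cells narrowed to 6.15 with centres within 500 bp counted in place of overlap and to 6.56 with p65 peaks of 10 or more tags. In knockout cells the gap of 7.70 narrowed to 4.21 with a reciprocal overlap of 50% and to 5.02 with p65 peaks of 10 or more tags.

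**Figure D1:**
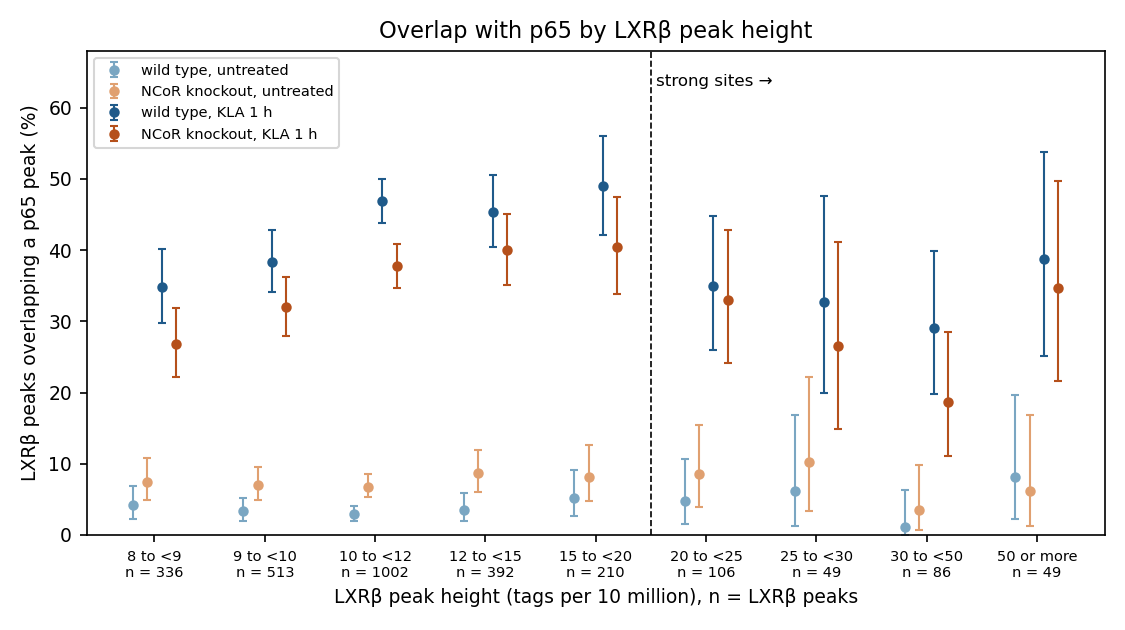
Share of LXRβ peaks overlapping a p65 peak (percent, y axis) in bands of LXRβ height (x axis, tags per 10000000), for the 4 p65 libraries. Points are shares, bars are 95% Clopper-Pearson intervals, and the dashed line marks the threshold of the strong sites. After KLA in wild type cells the share is 34.8% in the lowest band, 49.0% just below the threshold and 34.9% just above it.

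The order was the same among sites of low input. Among sites at the lowest scaled input, 31.3% of 201 strong sites and 43.5% of 2085 others overlapped wild type KLA p65, and 29.4% and 35.2% overlapped knockout KLA p65. Among the 89 strong sites with more input the shares were 38.2% (28.1 to 49.1) in wild type and 24.7% (16.2 to 35.0) in knockout cells, with overlapping intervals. Among other sites with more input they were 42.9% and 38.0%. Wild type and knockout thus stood closer at the low-input strong sites, while among other sites they stood closer at those with more input. An input was used to call the knockout KLA list but not the wild type one, and the part of this in the difference was not tested.

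The distance to the nearest p65 peak, measured between centres, gave the same order. It is not separate from the overlap, since an overlapping peak also makes the distance short. The median was 640 bp for strong sites (interval 274 to 1385) and 255 bp for others (192 to 336) in KLA-treated wild type cells. In KLA-treated knockout cells it was 3071 bp (1743 to 4964) and 1279 bp (884 to 1701). The wild type intervals overlapped, and the knockout intervals did not. A p65 centre lay within 1000 bp of 154 strong sites in wild type cells (53.1%, 47.2 to 59.0). The share was 58.6% of others (56.6 to 60.6), with overlapping intervals, and 58.0% of all LXRβ peaks. In knockout cells 118 strong sites (40.7%, 35.0 to 46.6) had such a centre, against 48.9% of others (46.9 to 50.9) and 48.0% of all. Farther out both kinds of site met. Within 10000 bp the wild type shares were 76.9% of strong and 77.6% of other sites, and within 50000 bp they were 92.1% and 91.6%.

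The shortfall of strong sites therefore lay at short range. A p65 centre within 100 bp was found at 29.0% of strong and 39.0% of other sites in wild type KLA cells, and at 23.8% and 32.0% in knockout KLA cells. Some sites had p65 beside them without overlap, at shares whose intervals overlapped between strong and other sites. Of the 193 strong sites without an overlapping wild type KLA peak, 57 (29.5%, 23.2 to 36.5) had one centred within 1000 bp, at a median of 237 bp and with a median height of 47.2. For the 1388 other sites without overlap this share was 26.9% (24.6 to 29.3), with a median height of 47.2 as well. In the knockout list it was 17.7% (12.8 to 23.6) of strong and 20.6% (18.6 to 22.7) of other sites without overlap.

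**Figure D2:**
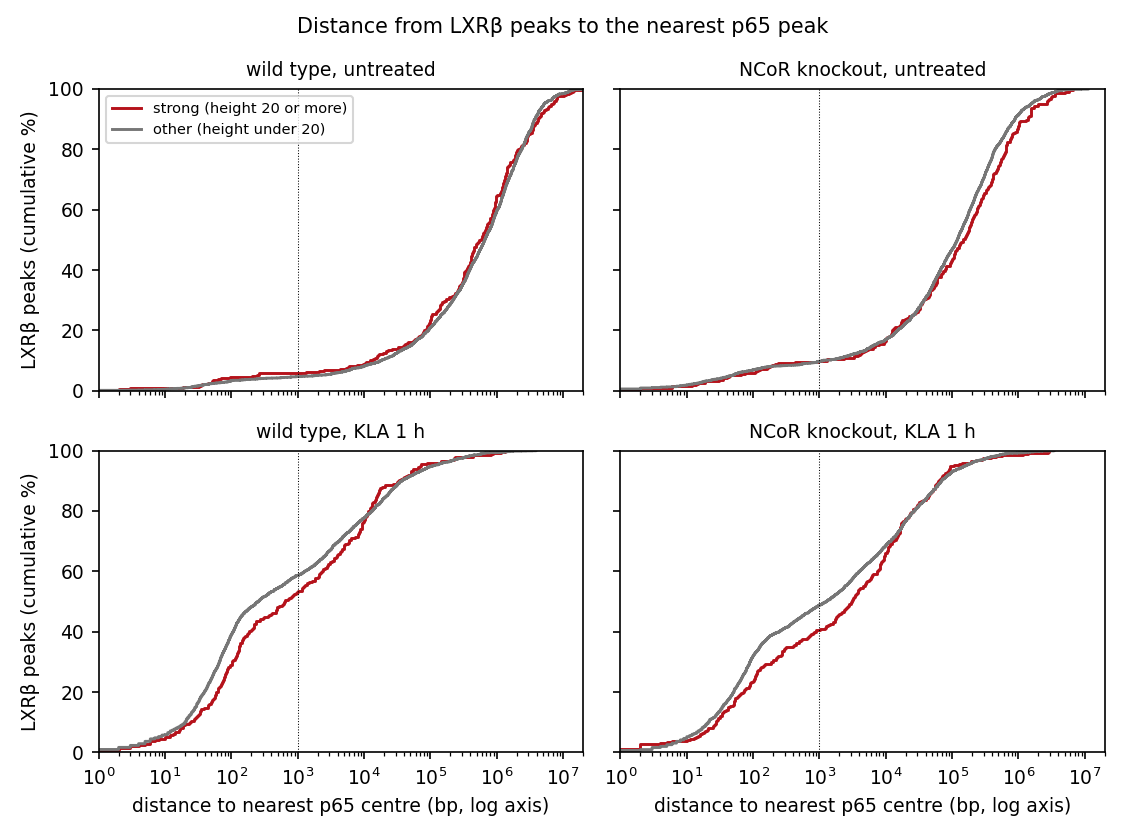
Cumulative share of LXRβ peaks (percent, y axis) by distance from their centre to the nearest p65 centre (bp, log x axis), for each p65 library. Red is strong sites, grey is other sites, and the dotted line marks 1000 bp. After KLA the red curve runs below the grey at short distances, with 29.0% against 39.0% at 100 bp in wild type cells, and joins it by 10000 bp; without KLA the curves lie close together.

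Where a strong site did carry p65, the p65 peak was about as tall as at other LXRβ sites. The median height in wild type KLA cells was 56.6 at the 97 strong sites (47.2 to 70.7) and 56.6 at the 1065 others (56.6 to 61.3). In knockout KLA cells it was 65.7 (59.8 to 77.7) at strong and 71.7 (65.7 to 71.7) at other sites. A p65 height of 100 or more was reached at 24 strong sites (24.7%) and 23.8% of others in wild type cells, and at 25 (30.9%) and 30.8% in knockout cells. At sites of the lowest input the order of the knockout medians turned, with 71.7 (59.8 to 89.6) at 59 strong and 65.7 (59.8 to 71.7) at 734 other sites, and the wild type medians were 70.7 (51.9 to 75.5) and 56.6 (51.9 to 61.3). Over all p65 peaks of these lists the medians were 42.4 and 53.8. Across the 97 strong sites LXRβ height and wild type KLA p65 height had a Spearman rank correlation of -0.0022, a description over sites that share both libraries.

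**Figure D3:**
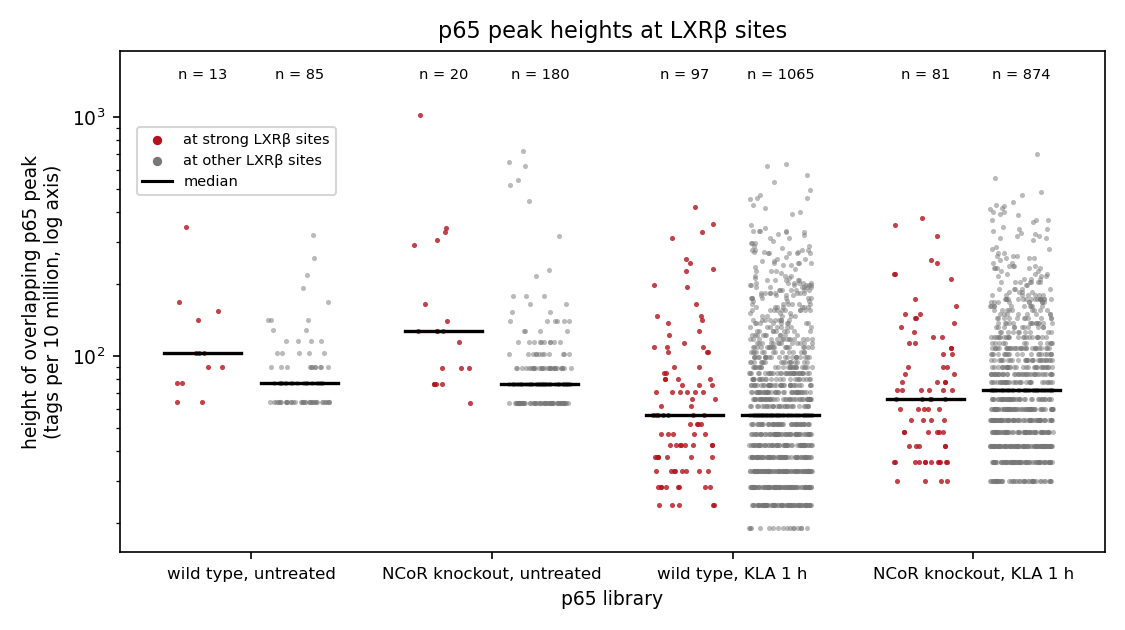
Height of the p65 peak overlapping an LXRβ site (tags per 10000000, log y axis) in each p65 library, with 1 point per site, the number of sites above, and black lines at the medians. After KLA the medians are 56.6 at both strong and other sites in wild type cells, and 65.7 at strong and 71.7 at other sites in knockout cells; sites with no overlapping peak are not plotted.

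The 4 tallest wild type KLA p65 peaks at strong sites stood at LXRβ peaks of 20 to 33.7. At chr5:53900952-53901072, an LXRβ peak of 20, p65 reached 102.9 in untreated wild type, 89.0 in untreated knockout, 419.7 in KLA wild type and 352.6 in KLA knockout cells. Both genotypes were higher after KLA there. The site chr1:133173558-133173678, with an LXRβ height of 23.7, had p65 heights of 358.4 (wild type) and 376.5 (knockout) after KLA. It had no untreated wild type peak and an untreated knockout peak of 127.2. At chr2:167200825-167200945 an LXRβ peak of 20 carried 330.1 and 251.0 after KLA, with 167.3 in untreated wild type cells. At chr2:46226659-46226779 an LXRβ peak of 33.7 carried 311.3 and 316.7 after KLA and no p65 peak without it.

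The 4 tallest LXRβ peaks with KLA p65 in both genotypes had it 2 to 79 bp from the LXRβ centre. At chr4:53128847-53128967 (LXRβ 98.3) the wild type KLA peak of 70.7 was centred 2 bp away and the knockout peak of 77.7 was 26 bp away. At chr17:31204103-31204223 (LXRβ 88.3) the heights were 80.2 and 83.7 and the offsets 8 and 2 bp. At chr9:25316575-25316695 (LXRβ 91.9) the heights were 108.5 and 113.5 and the offsets 44 and 42 bp. The tallest LXRβ peak, chrX:103382247-103382367, had offsets of 79 and 45 bp and heights of 42.4 and 89.6. Over all strong sites with overlap the median offset was 51 bp in wild type and 39 bp in knockout KLA cells, against 43 and 44 bp at other sites.

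Most strong sites had no p65 peak in any list. These were 173 of 290 (59.7%, 53.8 to 65.3), against 48.4% of others (46.4 to 50.4), while 117 strong sites overlapped p65 in at least 1 list, beside 50.4% of all LXRβ peaks. Among the 49 strong sites at 50 or more, 25 had no p65 after KLA in either genotype, beside 51.2% of all LXRβ peaks, a share near that of the whole list. For the 173 sites without p65 the nearest p65 centre of any list lay at a median of 3944 bp, and 51 (29.5%) had one within 1000 bp, against 27.7% of the other sites without p65. Another 56 (32.4%) had none within 10000 bp and 17 (9.83%) had none within 50000 bp, against 37.7% and 13.5% of the other sites without p65.

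The tallest of the sites without p65 showed both situations. The nearest p65 peak of any list to chr13:97363709-97363829 (LXRβ 113.8, input 3.0) was a wild type KLA peak of 23.6 at 45684 bp. At chr13:45487022-45487142 (LXRβ 109.2) KLA peaks of 33.0 in wild type and 41.8 in knockout cells lay 856 and 710 bp away. Beside chr11:120685997-120686117 (LXRβ 98.3) a wild type KLA peak of 33.0 lay at 622 bp, and the nearest knockout KLA peak at 56323 bp. At chr4:53171688-53171808 (LXRβ 87.4) all 4 lists had a peak between 1285 and 1325 bp away, with heights of 77.2 and 101.8 untreated and 334.8 and 394.4 after KLA. The site chr11:120482028-120482148 (LXRβ 97.4) had its nearest p65 peaks, of 84.9 and 113.5 after KLA, at 9854 and 9827 bp.

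The genotype comparison asked whether p65 at strong LXRβ sites differed when NCoR was deleted. After KLA, 62 strong sites (21.4%) overlapped p65 in both genotypes, beside 28.4% of all LXRβ peaks. Another 35 (12.1%, beside 14.0%) overlapped it only in wild type and 19 (6.55%, beside 6.45%) only in knockout cells. At the 62 shared sites the median ratio of knockout to wild type p65 height was 1.02 (0.902 to 1.06), with quartiles of 0.841 and 1.27. At the 716 shared other sites it was 1.01 (0.986 to 1.05), and over all 16203 wild type KLA p65 peaks shared between genotypes 1.09 (1.07 to 1.09). The knockout height was higher at 33 strong sites and lower at 29. The width of a called peak was 144 bp for knockout and 132 bp for wild type after KLA. With heights scaled to the width of the LXRβ peaks, the median ratio turned to 0.935 (0.827 to 0.968) at strong and 0.928 (0.904 to 0.960) at other sites. Without this scaling the interval at strong sites included equal heights, and with it the interval lay below them. The median at strong sites also fell below equal heights without width scaling. It was 0.962 (0.858 to 1.05) with only wild type KLA peaks at or above the lowest knockout KLA height. Among strong sites at the lowest input it was 0.983 (0.847 to 1.05). In the remaining alternatives without width scaling it stayed above equal heights. Which genotype had the higher p65 at strong sites was thus not settled.

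A ratio of 1.5 or more was seen at 8 strong sites (12.9%, beside 14.5% of all LXRβ sites with both peaks), and a ratio as far in the other direction at 5 (8.06%, beside 11.6%). The highest was 2.78 at chr9:3258802-3258922, where KLA p65 was 23.6 in wild type and 65.7 in knockout, and untreated knockout p65 was 165.4. The tallest LXRβ peak, on chromosome X, came next with 2.11, from 42.4 to 89.6, and chr6:82947894-82948014 followed at 2.11, from 28.3 to 59.8. The lowest ratios were 0.488 at chr6:115413153-115413273 (61.3 and 29.9), 0.563 at chr3:88226483-88226603 (84.9 and 47.8) and 0.576 at chr2:28380078-28380198 (103.8 and 59.8). These rest on 5 to 22 tags a peak.

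**Figure D4:**
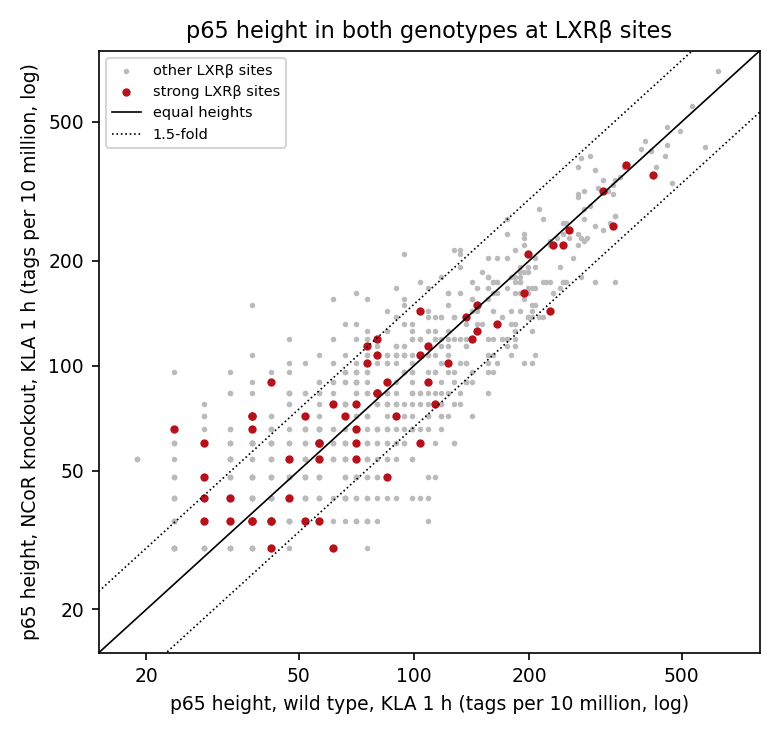
Height of the overlapping p65 peak after KLA in NCoR knockout (y axis) against wild type macrophages (x axis), both in tags per 10000000 on log axes, at LXRβ sites with a peak in both lists. Red points are the 62 strong sites and grey points the 716 others; the solid line marks equal heights and the dotted lines a ratio of 1.5 either way. Most red points lie between the dotted lines, with 8 at or above the upper and 5 at or below the lower.

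Sites listed in 1 genotype only had lower p65 peaks than shared sites, among strong and other LXRβ sites alike. The median p65 height was 42.4 at the 35 strong sites with wild type p65 only and 47.8 at the 19 with knockout p65 only, against 73.1 and 74.7 at sites with both. At other LXRβ sites these medians were 37.7 and 47.8, against 75.5 and 77.7. Over all p65 peaks of the wild type and knockout KLA lists they were 42.4 and 53.8. Input above the lowest value was found at 16 of the 35 wild type only sites, 4 of the 19 knockout only sites and 18 of the 62 shared sites, beside 30.7% of all strong sites. Other LXRβ sites did not have this order, with 12.0% of wild type only, 15.2% of knockout only and 16.2% of shared sites. The 3 tallest LXRβ peaks with wild type p65 only were chr11:108873178-108873298, chr4:3017304-3017424 and chr17:36368285-36368405. Their LXRβ inputs were 26, 110 and 13, and their wild type KLA p65 heights 127.3, 66.0 and 33.0. Whether the lack of an input in the wild type KLA call set these apart was not tested.

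The 3 tallest with knockout p65 only were all at the lowest input. At chr10:100297544-100297664 (LXRβ 97.4) the knockout peak was 35.9, and the nearest wild type KLA peak lay 437134 bp away. At chr19:44358696-44358816 (LXRβ 89.2) the knockout peak was 65.7, while a wild type peak of 28.3 was centred 152 bp away without overlap. At chr11:60024047-60024167 (LXRβ 79.2) the knockout peak was 29.9, the lowest height of that list, and the nearest wild type peak lay at 9200 bp. Of the 19 knockout only sites, 10 had a wild type KLA centre within 1000 bp, beside 56.5% of all such LXRβ peaks. Of the 35 wild type only sites 8 had a knockout one, beside 27.9% of all.

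Without KLA, p65 was listed at few strong sites. In untreated wild type cells 13 strong sites (4.48%, 2.41 to 7.54) overlapped a peak, against 3.47% of others and 3.57% of all. In untreated knockout cells 20 did (6.90%, 4.26 to 10.5), against 7.34% of others and 7.29% of all. The intervals of strong and other sites overlapped in both lists. The knockout order turned with p65 peaks of 10 or more tags (3.79% of strong and 1.06% of other sites), with centres within 500 bp (9.66% and 8.64%) and with strong sites taken at 15 or more (7.40% and 7.27%). The median distance to an untreated peak was 566795 bp for strong and 662685 bp for other sites in wild type cells, and 146571 and 119934 bp in knockout cells. The wild type order turned with strong sites taken at 30 or more (692895 and 651985 bp), and the knockout order with p65 peaks of 10 or more tags (1444815 and 2142687 bp).

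The median height of these untreated peaks was higher at strong sites than at others. LXRβ input was above its lowest value at a larger share of strong sites too, a share that the requirement of 4-fold over input affects. The untreated lists hold no height under 63.6, so only tall peaks can appear in them. The median p65 height was 102.9 (77.2 to 154.4) at the 13 strong and 77.2 (64.3 to 77.2) at the 85 other sites in wild type cells. In knockout cells it was 127.2 (89.0 to 165.4) at 20 strong and 76.3 (76.3 to 89.0) at 180 other sites. Among strong sites at the lowest LXRβ input the medians were 77.2 (7 sites) in wild type and 101.8 (12 sites) in knockout cells, against 77.2 (67 sites) and 76.3 (151 sites) at other sites of that input. The wild type medians were thus equal there. Among strong sites above the lowest input they were 102.9 (6 sites) and 229.0 (8 sites), against 77.2 (18 sites) and 89.0 (29 sites). Of the 15 strong sites with an input of 5 or more, 5 overlapped a wild type and 5 a knockout untreated peak. Each was 33.3% with a wide interval (11.8 to 61.6), beside 3.57% and 7.29% of all LXRβ peaks. The part of the input in these untreated heights was not tested. The 26 strong sites with p65 in either untreated list were 8.97% of strong sites, beside 9.04% of all LXRβ peaks. Of them, 25 had p65 in at least 1 KLA list as well, beside 82.7% of all LXRβ peaks with untreated p65. The exception, chr11:3001689-3001809, had the second highest input of the strong sites, 78 tags, and an untreated wild type peak of 90.1.

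Only 4 strong sites, 1.38% beside 1.47% of others, overlapped p65 in all 4 lists. The first was chrX:103382247-103382367, where wild type p65 was 77.2 untreated and 42.4 after KLA, and knockout p65 was 127.2 and 89.6. The second was chr9:110183769-110183889 (LXRβ 28.2, input 6.0), where wild type p65 was 102.9 and 56.6, and knockout p65 was 330.7 and 59.8. These heights rest on few tags in libraries of unlike size. At the first site the tags, untreated and then after KLA, were 6 and 9 in wild type and 10 and 15 in knockout cells. At the second they were 8 and 12 in wild type and 26 and 10 in knockout cells. At both sites the height after KLA was below the untreated height in each genotype, while the tag number fell only in knockout cells at the second. At chr12:3872971-3873091 (LXRβ 20) the order was the reverse, from 141.5 to 254.7 in wild type and from 127.2 to 245.0 in knockout cells, as it was at chr5:53900952-53901072 above. Among the 26 strong sites with untreated p65, 15 were at the lowest input and 7 had an input of 5 or more. At chr11:108873178-108873298 (input 26) untreated p65 was 347.4 in wild type and 1018 in knockout cells. At chr6:3151437-3151557 (LXRβ 52.8, input 11) it was 90.1 and 76.3. The site chr2:116815903-116816023 (LXRβ 41.0, lowest input) had 64.3 in untreated wild type cells and 173.3 in KLA-treated knockout cells. A wild type KLA peak of 169.8 was centred 147 bp from it.

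A minority of the strong sites came in clusters, and clusters of the other LXRβ sites were not counted. Strong sites whose centres followed each other within 50000 bp formed 11 clusters of 3 or more, a rule chosen after the positions were seen, and these held 57 strong sites. In the clusters 28.1% of strong sites (17.0 to 41.5) overlapped wild type KLA p65, against 34.8% (28.7 to 41.3) of the 233 outside them. The 11 clusters were unlike each other. The largest, chr4:140963022-141174655, held 16 strong and 5 other LXRβ sites over 211634 bp. It held 22 wild type and 16 knockout KLA p65 peaks, and 10 of its strong sites overlapped wild type and 5 knockout p65. The highest p65 peak there was 245.2 in wild type and 221.1 in knockout cells. Input lay above the lowest value at 9 of these 16 strong sites, with a highest of 4.0. Without this region 31.8% of strong sites and 43.5% of others overlapped wild type KLA p65.

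In the 10 other clusters, 6 of 41 strong sites (14.6%, 5.57 to 29.2) overlapped wild type KLA p65, beside 42.4% of all LXRβ peaks. Knockout KLA p65 was overlapped by 7 (17.1%, 7.15 to 32.1), beside 34.8% of all. The largest cluster was set apart after the data were seen. None of the 41 overlapped an untreated peak in either genotype, where 3 counts of 41 would be 7.32% and the Clopper-Pearson interval is 0 to 8.60. Of all LXRβ peaks 3.57% (wild type) and 7.29% (knockout) did. The 41 sites lie in only 10 regions, and these intervals treat them as separate draws, so they are too narrow. At chr17:31175453-31212712 there were 6 strong sites of 49.2 to 88.3, of which 3 carried p65 in both genotypes, at 165.1 and 131.5, 136.8 and 137.4, and 80.2 and 83.7. The other 3 had a wild type KLA centre at 187, 625 and 8331 bp. At chr6:115389898-115440220, 1 of 6 strong sites carried p65. At chr11:120480206-120486077, 5 strong sites of 40.1 to 97.4 stood within 5872 bp with no p65 peak among them, and the nearest wild type KLA centres were 5925 to 11676 bp away.

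Smaller clusters were also split. At chr4:53128847-53172871, 1 of 3 strong sites carried p65, although 6 peaks of each KLA list lay in the region. At chr4:53230512-53276927, 1 of 4 did, with 4 peaks of each KLA list in the region and a highest p65 of 334.8 in wild type and 388.4 in knockout cells. At chr19:44322731-44389122, 1 of 3 carried p65 in knockout cells only. The clusters at chr13:43467180-43480966, chr7:29561983-29573116, chr19:44463124-44468701 and chr2:144511658-144513513 held 4, 4, 3 and 3 strong sites and no p65 peak of any list. Strong LXRβ sites in a row thus stood both among p65 peaks and well away from them.

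**Figure D5:**
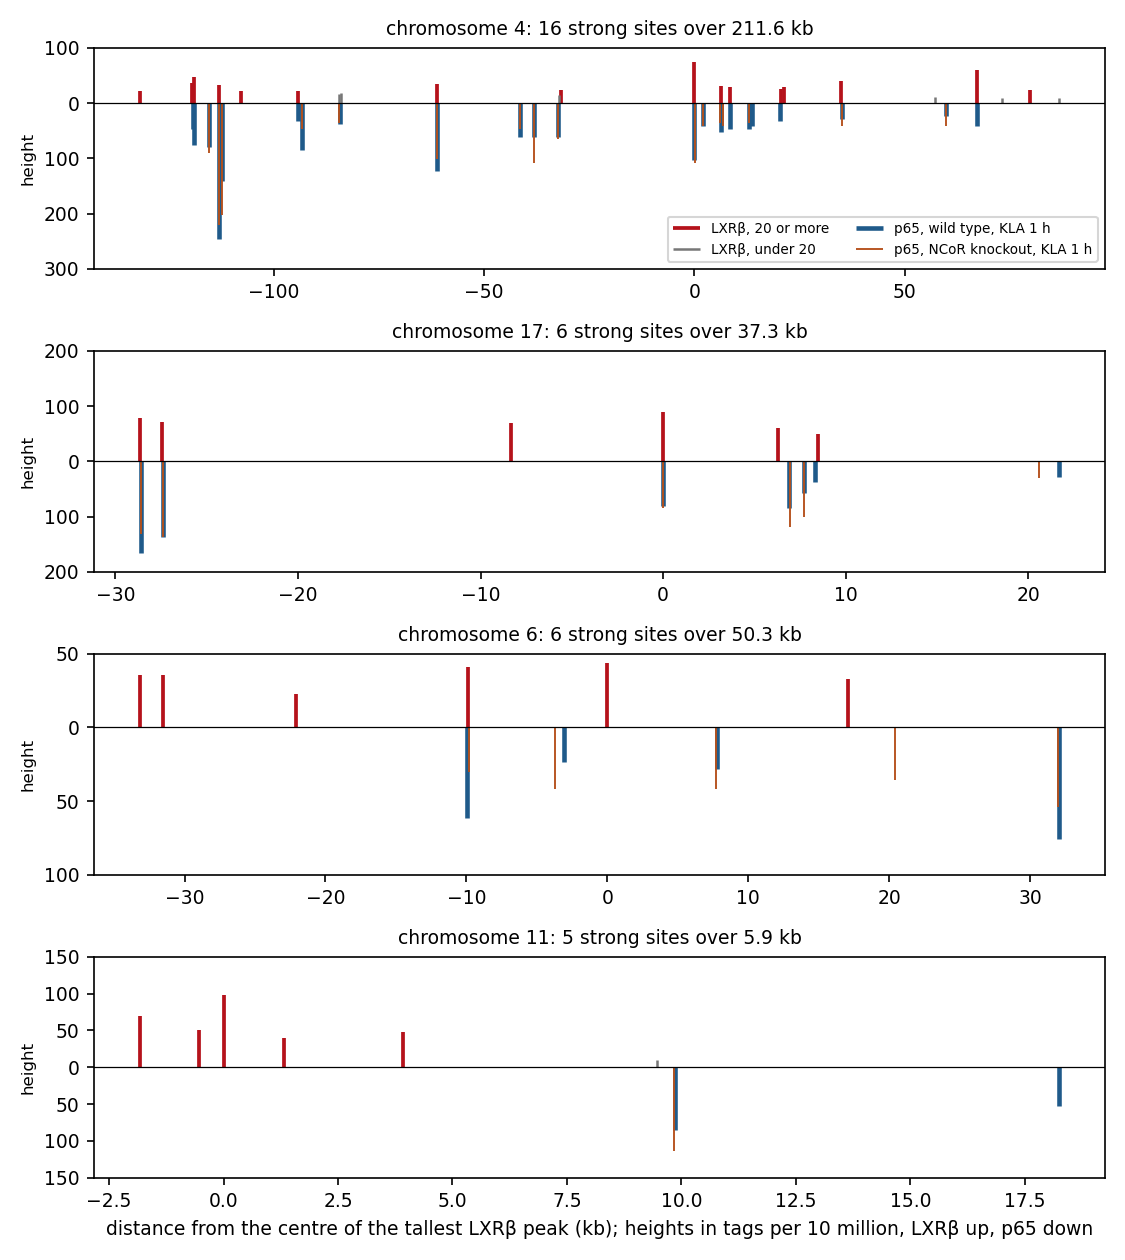
The 4 clusters with most strong sites, with distance from the tallest LXRβ peak on the x axis (kb) and peak height on the y axis (tags per 10000000), LXRβ drawn upward and KLA p65 downward. Red lines are strong LXRβ sites, grey lines other LXRβ sites, wide blue lines wild type and thin brown lines knockout p65. On chromosome 4, 10 of 16 strong sites meet a wild type p65 peak; on chromosome 11 none of the 5 does.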

How the data were processed

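The submitters' processing notes name Bowtie 0.12.7, HOMER and build mm9. HOMER's findPeaks was run on each library in factor mode at a false discovery rate of 0.001, counting at most 1 tag per bp and requiring 4-fold over the surrounding 10000 bp, per the file headers. The LXRβ list used an input of the control line, 3 p65 lists a wild type macrophage input, and the wild type KLA list none. The headers also give the LXRβ and wild type KLA lists a smaller genome size setting than the others. The name of the LXRβ tag set ends in All, so whether it pools several runs is not given in the sources used here. The deposited height is a signal value, in tags per 10000000. In the LXRβ list it is proportional to the deposited findPeaks score, used here as the tag number. The scaled input tags and the focus ratio (a fraction) are deposited values too, as is the fold over local signal (a ratio).

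Overlap, centre distance and height were computed here with Python 3.11.15, numpy 2.4.6, pandas 2.3.3 and scipy 1.17.1. The matching of peaks was tested on simulated data, and bedtools 2.31.1 gave the same counts. A height is that of the overlapping peak with the nearest centre. Intervals of medians are from order statistics. No library had a replicate and no test was run. Sites were named by rank (tallest, highest p65, highest and lowest ratio, most input, edges of the threshold). The members and lists were chosen with earlier results of these data known. No genome of build mm9 was used here, so planned motif and gene list counts were not made.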

Additional observations from a re-analysis of the deposited data

How the results depend on the processing

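In every alternative tried, strong sites overlapped KLA p65 less often than other sites (10 alternatives in wild type, 9 in knockout) and lay farther from it (7 and 6). The intervals of the strong and other shares overlapped in many of them, however. In wild type cells they did with strong sites taken at 15 or more and at 30 or more, and with centres within 500 bp. They also did with p65 peaks of 10 or more tags and with wild type KLA peaks at 29.9 or more. In knockout cells they overlapped at 15 or more, within 500 bp and with a reciprocal overlap of 50%. They did so too with p65 peaks of 10 or more tags and at the lowest scaled input. In wild type cells they were 35.7 to 44.4 and 40.8 to 45.0 with strong sites taken at 15 or more. With p65 peaks of 10 or more tags they were 16.5 to 26.2 and 25.8 to 29.4. In knockout cells they were 23.2 to 36.2 and 33.2 to 37.3 at the lowest scaled input. The order reversed for untreated knockout overlap in 3 of 9 alternatives and for its distance in 1 of 6, and for untreated wild type distance in 1 of 6. The order of strong and other sites was also lost or reversed for knockout KLA height in 5 of 10 alternatives and for the knockout to wild type ratio in 4 of 11. The wild type KLA heights, equal as reported, were higher at strong sites in 2 of 11 and lower in 3. Shares below are strong, then other sites. With p65 peaks of 10 or more tags they were 1.38% and 0.408% (untreated wild type), 3.79% and 1.06% (untreated knockout), 21.0% and 27.6% (KLA wild type), and 17.2% and 22.3% (KLA knockout). Median distances were then 10395411 and 13175573 bp, 1444815 and 2142687 bp, 8724 and 7299 bp, and 16363 and 14988 bp, and KLA heights 80.2 and 84.9 (wild type) and 95.6 and 95.6 (knockout). Centres within 500 bp gave 48.3% and 54.4% in KLA wild type, 36.9% and 44.6% in KLA knockout, and 4.28% and 8.64% of other sites in untreated wild type and knockout cells. A reciprocal overlap of 50% gave 20% and 27.9%, 18.6% and 22.8%, and 2.41% and 6.07% of other sites untreated. Centres within 100 bp gave 39.0% and 32.0% of other sites in KLA wild type and knockout cells. Members at 15 or more gave 40.0% in KLA wild type. With wild type KLA peaks at 29.9 or more, 36.3% of other sites overlapped, distances were 1946 and 1341 bp, and the height at other sites was 70.7. Heights scaled to the LXRβ peak width were 51.9 at other sites in wild type and 55.2 and 60.2 in knockout cells, and the ratio turned to 0.935 at strong and 0.928 at other sites, by the widths alone. The causes of the other shifts were not tested, beyond fewer peaks in the stricter lists. In all, 145 of 188 values stayed within the interval of the reported value, including all those at the lowest scaled input and without the 16-site cluster on chromosome 4, both chosen after seeing the data. Less than 1 scaled input tag was not run, since no LXRβ peak has it. No paired analysis was possible because each group was 1 library and no test was run. At 5 tags a peak, the untreated lists in particular cannot show weak binding.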
